A study of Mus musculus with 14 samples.

Results

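Cells labelled as dendritic cells, with the most and with the least MHC class II protein, were compared within tumours. The cells had been sorted one by one from YUMM1.7 melanomas, a mouse melanoma line, and their MHC class II (MHCII) staining was recorded at the sort. A cell entered when it had a numeric MHCII value, an arcsinh CD64 value under 8 and UMIs (unique molecular identifiers) in fewer than 3 of the fibroblast genes Col1a1, Col1a2, Col3a1, Dcn and Sparc. Of 555 cells in 14 plates, 458 in 12 plates had an MHCII value, 70 of these were left out for CD64 and 57 for fibroblast genes, and 331 stayed. Within each of the 12 plates, which held 18 to 44 such cells, the cells were ranked by arcsinh MHCII and cut into 3 parts of about equal size, called here the high, the middle and the low group. The high and the low group had 106 cells each, so the comparison used 212 of the 555 cells, and the 119 cells of the middle group served as a reference.

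Each plate held cells of 1 tumour from 1 female mouse, injected under the skin of the right flank, and both groups of a plate therefore came from the same tumour. The genotypes are given here as the labels name them. Irf1_FF, a control in the study's design text, gave 32 high and 32 low cells from 4 plates, and Irf1_dXCR1 gave 49 and 49 from 5 plates; all these mice were 6 weeks old. Ikbkb_dXCR1 gave 25 and 25 cells from 3 plates, of 2 mice aged 8 weeks and 1 aged 6 weeks. The driver of the deletion is not given in the labels. The Ikbkb_FF plate and 1 further Ikbkb_dXCR1 plate had no MHCII value for any cell, and in Irf1_FF replicate 4 only part of the cells had one. Both Irf1 genotypes belong to the experiment labelled M3 and Ikbkb_dXCR1 to M2, so that genotype and experiment cannot be told apart for Ikbkb_dXCR1.

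MHC class II molecules are pairs of an alpha and a beta chain that show peptides from endosomes to CD4 T cells. The invariant chain, Cd74, fills their groove until endosomal proteases degrade it, and H2-DM then exchanges the remaining fragment for a peptide, while H2-O restrains H2-DM. The transactivator Ciita controls transcription of these genes, the ubiquitin ligase March1 sends surface class II for degradation, and Cd83 opposes March1. Dendritic cells are known to mature after sensing danger or taking up dying cells. They then raise Ccr7, chemokines and costimulatory ligands and keep class II at the surface, while Ciita transcription falls. Type 1 conventional dendritic cells (cDC1), the labelled cell type, depend on Irf8 and Batf3, carry Xcr1 and Clec9a and are specialised in cross-presentation.

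The promoters of 4 genes of the comparison, none of which passed the test below, are shown from RefSeq (GRCm38.p6, 250 bases before to 50 bases after the transcript start). In 3 class II genes the letters ATTGG or CCAAT (the Y box, bound by NF-Y) are in capitals, and in Nfkbia, a feedback inhibitor of NF-κB, the match to the κB consensus of NF-κB, on either strand.
H2-Aa, chr17:34287774-34288073, minus strand: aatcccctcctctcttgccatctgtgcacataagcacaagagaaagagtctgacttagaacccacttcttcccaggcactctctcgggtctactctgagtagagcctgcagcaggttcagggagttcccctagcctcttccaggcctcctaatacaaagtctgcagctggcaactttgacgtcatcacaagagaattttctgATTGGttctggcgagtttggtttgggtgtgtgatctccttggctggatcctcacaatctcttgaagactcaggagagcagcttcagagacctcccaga
H2-Eb1, chr17:34305617-34305916, plus strand: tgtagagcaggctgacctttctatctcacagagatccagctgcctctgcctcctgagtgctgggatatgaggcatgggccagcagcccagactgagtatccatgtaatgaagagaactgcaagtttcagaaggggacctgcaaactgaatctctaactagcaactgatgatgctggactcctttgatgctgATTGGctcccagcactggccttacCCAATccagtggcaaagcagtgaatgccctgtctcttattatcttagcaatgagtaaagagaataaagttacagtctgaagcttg
H2-DMb1, chr17:34152941-34153240, plus strand: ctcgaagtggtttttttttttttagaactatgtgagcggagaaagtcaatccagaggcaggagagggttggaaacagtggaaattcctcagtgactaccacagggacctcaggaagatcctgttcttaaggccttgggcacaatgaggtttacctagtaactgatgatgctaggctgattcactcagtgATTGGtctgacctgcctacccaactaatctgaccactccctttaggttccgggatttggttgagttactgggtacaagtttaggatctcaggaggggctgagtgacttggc
Nfkbia, chr12:55492598-55492897, minus strand: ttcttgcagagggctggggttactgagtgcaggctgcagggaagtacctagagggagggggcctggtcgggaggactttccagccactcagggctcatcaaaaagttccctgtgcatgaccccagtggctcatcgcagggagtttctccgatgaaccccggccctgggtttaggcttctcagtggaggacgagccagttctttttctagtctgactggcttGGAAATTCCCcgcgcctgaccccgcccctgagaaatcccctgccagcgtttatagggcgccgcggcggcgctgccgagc
The Y box began 48 bases before the start of H2-Aa and 61 before that of H2-DMb1, and H2-Eb1 held 2 matches, 59 and 35 bases before its start. Its letters were found on either strand in the windows of 8 of 8 class II genes with a RefSeq window (of 10 in the list) and in 41.1% of all 27025 genes with a window. The κB consensus stood 29 bases before the start of Nfkbia and occurred in 9.55% of all genes with a window, in 11 of 18 NF-κB target genes, in 0 of 16 maturation genes and in 1 of 8 class II genes with a window. That class II gene was H2-Aa, with overlapping matches that are not capitalised above. Of the 5 genes that passed the test below, 2 held the Y box letters and 0 the κB consensus. These are matches of letters and not measured sites.

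The groups were chosen by MHCII staining, and its values are given as a description. The median arcsinh MHCII of the high group ran from 9.14 through a median of 10.6 to 11.3 over the 12 plates, and that of the low group from 7.51 through 8.01 to 8.55. On the linear scale the plate medians ran from 4654 to 40834 in the high and from 915 to 2585 in the low group. The cell just inside the high group stood at 9.83 and the cell just outside it at 9.76, as medians over plates. At the low group these values were 8.63 inside and 8.75 outside, so that neighbouring cells at the limits differed little. At the CD64 limit, 15 cells that stayed lay within 0.5 below it and 15 stained cells left out within 0.5 above it. The brightest plates and the dimmest differed as well: the high group of Irf1_dXCR1 replicate 1 had a median of 9.14, below the middle group of Irf1_FF replicate 4 at 10.1.

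**Figure D1:**
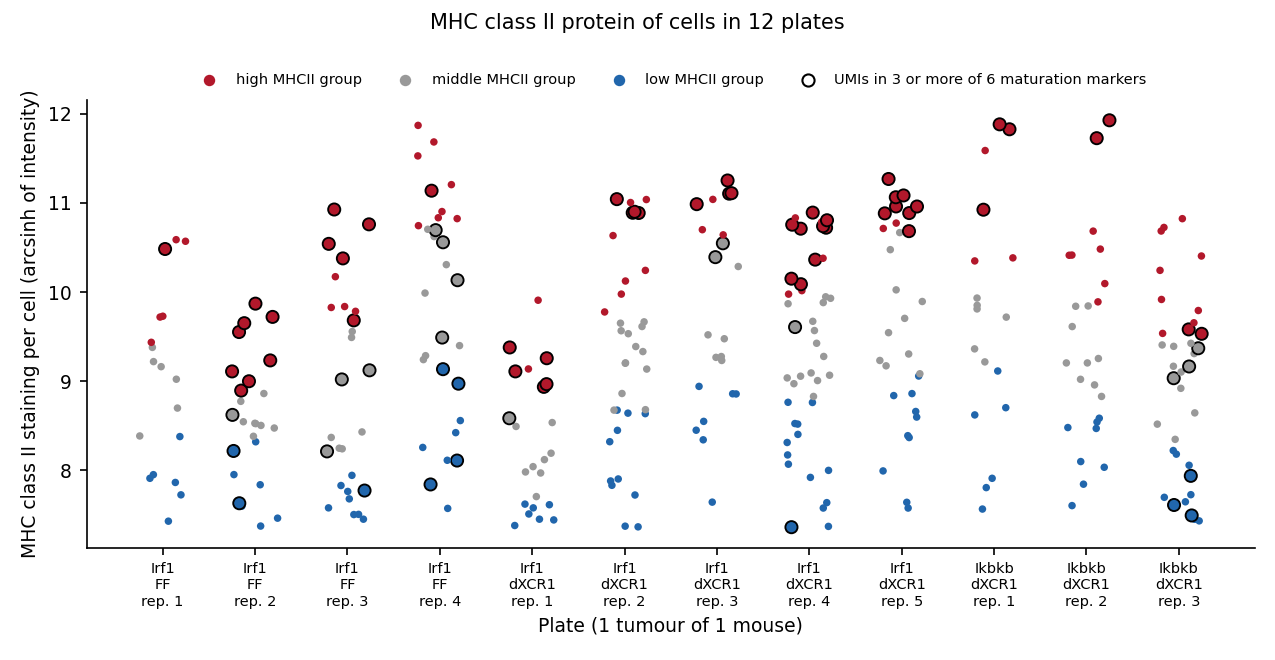
Each point is 1 of 331 cells, placed by plate (x axis) and arcsinh MHCII staining (y axis); colours mark the groups of each plate, and ringed points are cells with UMIs in 3 or more of 6 maturation markers. Most ringed points lie in the high group, except in Irf1_FF replicate 4 and Ikbkb_dXCR1 replicate 3.

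The groups held 704057 to 2898010 UMIs per plate. UMIs per cell did not pass the test between groups (plate medians 144889 ± 24465 in the high and 127750.0 ± 46112 in the low group, SD, n = 12; exact sign-flip permutation adjusted p = 0.457), nor did genes per cell, forward scatter, mitochondrial or spike-in shares. Summed macrophage markers ran from 338 to 2199 CPM (counts per 1000000 UMIs) in the high and from 582 to 2054 CPM in the low group, with medians of 766 and 1446 CPM, Mertk and Trem2 at 0 and 3 of 16 genes tested; they were lower in the high group in 7 of 12 plates. Summed B cell and plasmacytoid dendritic cell markers had medians of 221 and 391 CPM and were lower in the high group in 9 plates, with Ms4a1 at 0. T and NK cell genes reached 1675 CPM in 1 high and 3996 CPM in 1 low sum, with medians of 105 and 34.4 CPM. The part of these cells in the results below was not tested, except where cells are left out. P-values measure the spread between plates, which were separate mice.

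Transcripts of the MHC class II molecules did not separate the groups that the protein defined. H2-Ab1, the beta chain of I-A (chr17:34257689-34269419, GRCm38), ran from a lowest plate through the median to the highest at 1747, 4970.1 and 6858 CPM in the high group and 3240.5, 4615 and 8769.6 CPM in the low group. The ranges overlapped almost wholly, and 7 plates were higher and 5 lower. Its means were 4966 ± 1391 CPM in the high and 4933 ± 1494 CPM in the low group (SD, n = 12). The edgeR estimate on the log2 scale was -0.01 ± 0.12 (SE, as for fold changes below), with an adjusted p of 0.997. Cd74 (chr18:60803848-60812652) stood at 3859, 6067 and 8571 CPM (lowest, median and highest plate) in the high and 2866, 4828 and 7798 CPM in the low group. It was higher in 9 of 12 plates, again with wide overlap, and its log2 fold change of 0.29 ± 0.11 did not pass the test over all genes (unadjusted p = 0.0166, adjusted p = 0.354). The alpha chain H2-Aa (chr17:34282744-34287823) had 5451 ± 1083 CPM in the high and 4648 ± 1538 CPM in the low group (adjusted p = 0.497), and the beta chain H2-Eb1 (chr17:34305867-34316674) had 4481 ± 1005 CPM in the high and 3998 ± 1154 CPM in the low group (adjusted p = 0.686). Both were higher in 8 of 12 plates.

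These 4 transcripts were near the ceiling of the assay. A UMI of 5 bases has 1024 forms, and more than 512 of them were used for Cd74 in 78.3% of high and 67.9% of low cells. For H2-Ab1 these shares were 59.4% and 67.0%, so that large differences among these transcripts are compressed. With counts corrected for tags used more than once, H2-Ab1 had a log2 fold change of -0.22 ± 0.16 and Cd74 of 0.18 ± 0.09 (adjusted p = 0.779 and 0.575). Across the cells of a plate, Spearman's rho was taken between MHCII staining and the UMIs of a gene scaled to the total UMIs of the cell. For H2-Ab1 it ran from -0.39 to 0.31 over 12 plates with a median of -0.12. For Cd74 the median was 0.05, and for the maturation gene Ccr7 it was 0.51. These are descriptions over cells that share a library and differ in depth. Near the ceiling, scaled values also vary with the depth of the cell, and its part was not tested.

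The peptide-loading genes H2-DMa, H2-DMb1 and H2-DMb2 had lower means in the high group, and none passed the test. H2-DMa (chr17:34119541-34139101) ran at 286, 786 and 2337 CPM in the high and 988, 1591 and 3300.4 CPM in the low group as lowest, median and highest plates. It was lower in 9 of 12 plates, the exceptions being Irf1_FF replicates 1 and 4 and Ikbkb_dXCR1 replicate 3, and the groups overlapped (log2 fold change -0.82 ± 0.28; adjusted p = 0.294). H2-DMb1 had 951 ± 680.4 CPM in the high and 1651 ± 507 CPM in the low group (adjusted p = 0.593), and H2-DMb2 had 440.0 ± 189.6 CPM in the high and 640.0 ± 265 CPM in the low group (adjusted p = 0.603). H2-DMb1 and H2-DMb2 are similar neighbouring genes, and H2-DMa overlaps Brd2 on the other strand, so reads could be shared between copies or strands. When each cell had the same weight (limma-trend on the mean of log2(CPM + 1)), H2-DMa and H2-DMb1 were called lower (adjusted p = 0.043 and 0.0122). DESeq2 called H2-DMa (adjusted p = 0.00465). H2-Oa and H2-Ob, the chains of the H2-DM inhibitor, had 99.2 and 133 CPM and 400.5 and 459 CPM in the high and low group and did not pass. H2-Eb2 had too few UMIs to be tested, and was seen in 12.3% of high and 0.943% of low cells, with at most 155 and 1 UMIs per cell. In all, 4 of 9 tested members of the class II list were fitted higher and 5 lower, with a median log2 ratio of mean CPM of -0.20, against -0.07 over all 3845 genes tested. At an unadjusted edgeR p under 0.05, 2 members were higher and 1 lower, against 6.16% and 2.76% of all genes.

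Regulators of class II showed the same lack of calls: 6 of 16 listed names could be tested, and 0 passed in edgeR (1 with an unadjusted p under 0.05, 1 call with equal weights and 2 in DESeq2, against 8.92%, 5.31% and 14.9% of all genes). Ciita (chr16:10480059-10528418) had 212 ± 174 CPM in the high and 378 ± 186 CPM in the low group and was lower in 10 of 12 plates (adjusted p = 0.603). March1 had 152 ± 169.5 CPM in the high and 368 ± 172 CPM in the low group, lower in 9 plates (adjusted p = 0.65; 0.0155 in DESeq2). Cd83 (chr13:43784775-43803132) went the other way: its lowest, median and highest plates were 1282, 3453 and 4778 CPM in the high and 393, 1033 and 2524 CPM in the low group. Cd83 was higher in 10 of 12 plates with a log2 fold change of 1.55 ± 0.31, just short of the threshold (adjusted p = 0.0573), and passed with cells weighted equally (0.000174) and in DESeq2 (6.34e-05). Irf8 differed little, at 1335 and 1429.9 CPM, and the NF-Y, RFX and Irf4 genes of the list had too few UMIs to be tested.

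**Figure D2:**
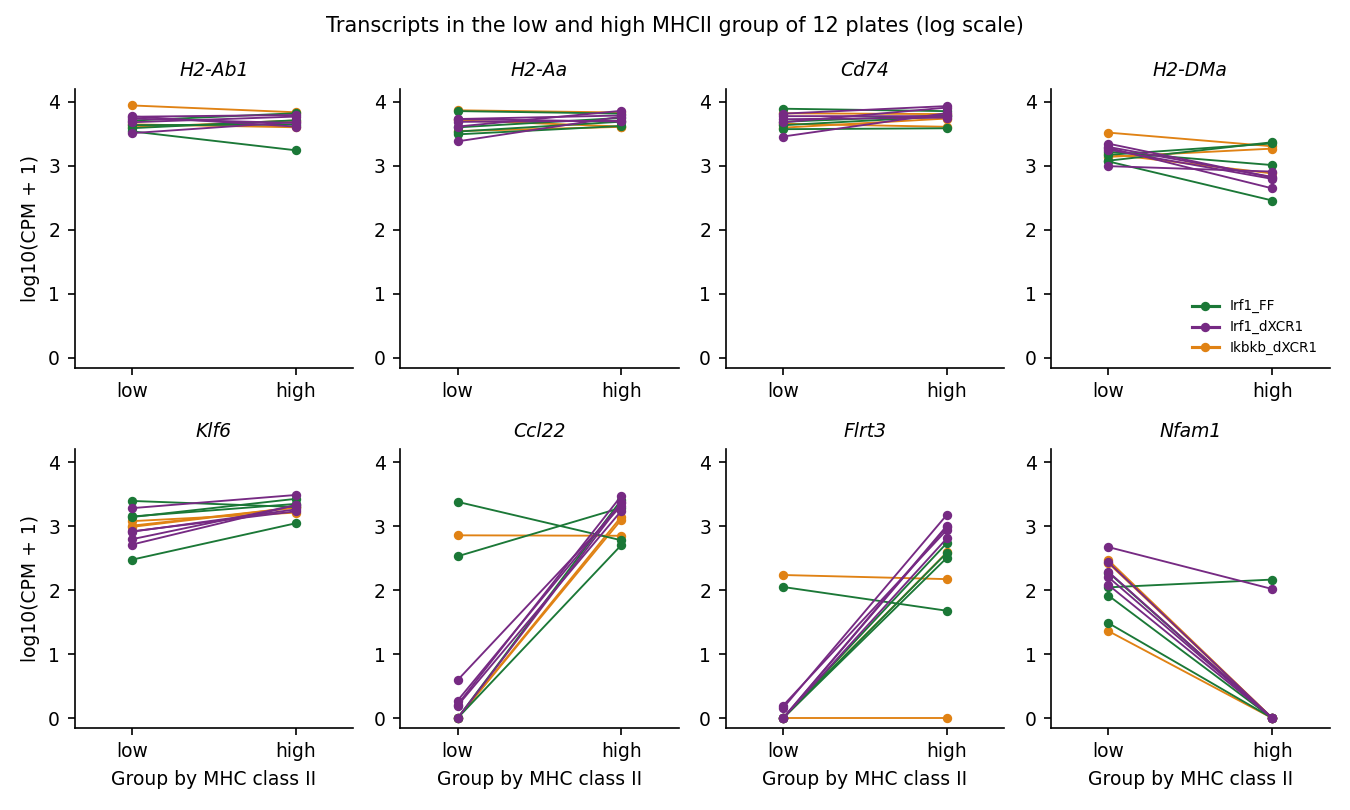
Each line joins the low and the high group of 1 of 12 plates (y axis, log10 of CPM + 1), coloured by genotype. H2-Ab1, H2-Aa and Cd74 run up in 7, 8 and 9 plates, H2-DMa runs down in 9 plates, Klf6, Ccl22 and Flrt3 run up in 11, 10 and 9 plates, and Nfam1 runs down in 11.

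Over all genes, 5 of 3845 (0.13%) passed the paired edgeR test, 4 higher (0.104%) and 1 lower (0.026%) in the high group, and 343 (8.92%) had an unadjusted p under 0.05. In sums over cells, more cells of a state and more RNA per cell cannot be told apart, and shares of cells are given further on. Ccl22, a chemokine of mature dendritic cells that attracts CCR4-bearing T cells (chr8:94745590-94751699), rose. Its high group ran at 508, 1844 and 2994 CPM, while its low group had 0 in 5 plates, a median of 0.600 and a highest value of 2399 CPM in Irf1_FF replicate 4. In that plate and in Ikbkb_dXCR1 replicate 3 the low group was above the high group, and the ranges overlapped for this reason. The means were 1707 ± 815 CPM in the high and 288 ± 699.7 CPM in the low group (SD, n = 12; adjusted p = 0.0418). Fitted fold changes of genes with many sums at 0 depend on the prior count and are not printed for them.

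Klf6, a transcription factor of the Krüppel family (chr13:5861482-5870394), rose from 1122 ± 612 to 2034 ± 497 CPM, a log2 fold change of 1.02 ± 0.19 (adjusted p = 0.0418). Its plates ran at 1110.2, 1975 and 3069.6 CPM in the high and 298, 996 and 2476 CPM in the low group, overlapping, with 11 of 12 higher; Irf1_FF replicate 4 was the exception. Flrt3, a membrane protein with leucine-rich repeats (chr2:140650914-140671469, inside Macrod2 on the other strand), rose from 23.7 ± 56.5 to 571 ± 452 CPM (adjusted p = 0.0418). Its low group was at 0 in 8 plates and its high group in 1, with high-group values of 0, 467 and 1506 CPM as lowest, median and highest. Ikbkb_dXCR1 replicate 1 had no Flrt3 UMI in either group.

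Gm13546, annotated as an antisense transcript (chr2:58164001-58177063), rose from 31.0 ± 77.5 to 420.2 ± 274 CPM and was at 0 in the low group of 10 plates (adjusted p = 0.0418). It lies within Cytip on the other strand, and since the counting is not stated to use strand, the reads of both cannot be told apart. Cytip, a regulator of dendritic cell adhesion that was looked up after the values of Gm13546 were seen, had 1358 and 569 CPM in the high and low group (adjusted p = 0.0791). Nfam1, an activating receptor with an ITAM motif (chr15:82992973-83033306), fell from 183 ± 127 to 20.7 ± 49.2 CPM (adjusted p = 0.0418). It was at 0 in the high group of 10 plates and in no low group, and was higher in the high group in Irf1_FF replicate 1 alone.

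The calls were few and moved with the plates. Without any of 8 plates 0 genes passed; 46 passed without Ikbkb_dXCR1 replicate 3 and 54 without Irf1_FF replicate 4, the 2 plates in which Ccl22 was not higher in the high group, 1 passed without Irf1_FF replicate 1 and 2 without Irf1_FF replicate 3. Limma-trend with equal weight for each cell called 204 genes (5.31%) and DESeq2 572 (14.9%), and 178 were called by both. Without the pairing by plate edgeR called 0 (223 with an unadjusted p under 0.05). Both other tools called all 5 genes named above. Of 3845 genes, 18 (0.468%) went the same way in 12 of 12 plates and 114 (2.96%) in 11 or more, and 0 (0%) had groups that did not overlap.

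Other small p-values did not pass the adjustment. Nfkbia ran at 683, 2214 and 3131 CPM in the high and 279, 669 and 1817 CPM in the low group, higher in 11 of 12 plates with overlapping ranges (log2 fold change 1.44 ± 0.28; adjusted p = 0.0573). Cfl1, the actin-severing protein cofilin, had 4258 ± 783 CPM in the high and 3129 ± 775 CPM in the low group (log2 fold change 0.46 ± 0.09; adjusted p = 0.0573). On the lower side stood Sgk1, a kinase induced by serum and glucocorticoids, at 11.6 and 122 CPM, the kinase gene Pak1 at 45.4 and 161 CPM, Eefsec, a factor of selenoprotein translation, at 9.82 and 72.4 CPM, Arfip2 at 21.1 and 97.8 CPM and Pdia3, a disulfide isomerase of the endoplasmic reticulum, at 657 and 1087 CPM in the high and low group (adjusted p from 0.0573 to 0.095). None of these 7 genes passed the edgeR test.

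Maturation genes stood higher in the high group as a group of values. Of 25 listed genes 22 were tested, and all 22 were fitted higher, with a median log2 ratio of mean CPM of 2.39 against -0.07 over all genes, of which 45.4% were fitted higher. A gene seen only in the high group can pass the count filter through that group alone, so this count is a description. Ccl22 alone passed in edgeR (4 of 3845 genes, 0.104%, passed upwards), 20 had an unadjusted p under 0.05 (237 genes, 6.16%, upwards), and equal weights and DESeq2 each called 21 (160 genes, 4.16%, and 305 genes, 7.93%). Ccr7, the receptor that guides dendritic cells to lymph nodes, ran at 513, 2498 and 4615 CPM in the high group and was at 0 in 7 of 12 low groups, with 1230.0 CPM at most. Ccr7 was higher in 10 plates (adjusted p = 0.0631). Fscn1, which bundles actin in dendrites, had 465 ± 283 CPM in the high and 77.1 ± 141 CPM in the low group (adjusted p = 0.162). The cytokine subunit Il12b had 1239.6 ± 788 CPM in the high and 215 ± 406 CPM in the low group, and the chemokine Ccl5 1189.9 ± 1013 CPM in the high and 273 ± 423 CPM in the low group (adjusted p = 0.0689 and 0.0689). Cd63, a tetraspanin of endosomes, had 1696 ± 1069.7 CPM in the high and 395 ± 440.1 CPM in the low group (adjusted p = 0.26). Birc3, an inhibitor of apoptosis, was higher in 12 of 12 plates, at 347 and 73.5 CPM.

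NF-κB targets and costimulatory ligands had higher means in the high group without a call in edgeR. Of 22 NF-κB targets 16 were tested, 15 fitted higher and 0 passed in edgeR. Higher calls numbered 11 with equal weights (4.16% of all genes) and 9 in DESeq2 (7.93%), and 8 were higher at an unadjusted p under 0.05 (6.16%). Their median log2 ratio was 1.42. Here and in the lists that follow, genes near 0 in the low group could again pass the count filter through the high group alone. Bcl2a1d, a survival gene of the Bcl2 family with close copies, had 845 ± 367 CPM in the high and 281 ± 168 CPM in the low group (adjusted p = 0.0689). Rel, an NF-κB subunit, was higher in 12 of 12 plates, at 331 ± 125 CPM in the high and 82.8 ± 76.5 CPM in the low group (adjusted p = 0.376). Of 16 costimulatory and checkpoint ligands 12 were tested and 9 fitted higher, with a median log2 ratio of 1.55; 0 passed in edgeR, 6 were higher at an unadjusted p under 0.05 (6.16% of all genes), and 7 with equal weights (4.16%) and 8 in DESeq2 (7.93%) were called higher. Cd86, a ligand of CD28, had 1219 ± 596 CPM in the high and 582 ± 344 CPM in the low group (adjusted p = 0.137), and Cd40, which receives T cell help, had 870.2 ± 364 CPM in the high and 212 ± 209 CPM in the low group (adjusted p = 0.262). The ligands of PD-1 stood higher too: Cd274 had 446 and 95.5 CPM and Pdcd1lg2 365 and 50.7 CPM in the high and low group (adjusted p = 0.211 and 0.0573). Havcr2, the receptor TIM-3, had 162 and 353 CPM (adjusted p = 0.825).

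Other parts of the antigen-presentation machinery differed by less. Of 16 endosomal proteases and related genes 13 were tested, 9 fitted higher and 0 passed in edgeR (4 higher at an unadjusted p under 0.05, 1 with equal weights and 4 in DESeq2, against 6.16%, 4.16% and 7.93% of all genes), with a median log2 ratio of 0.33. Legumain, Lgmn, an asparaginyl endopeptidase, ran at 235, 1294 and 2128 CPM in the high and 0, 148 and 873 CPM in the low group and was higher in 10 plates (adjusted p = 0.165). Cst3, a protease inhibitor, had 7129 ± 1147 CPM in the high and 5668 ± 1917 CPM in the low group, and cathepsin S, Ctss, which trims the invariant chain, 1707 ± 449 CPM in the high and 1494 ± 449 CPM in the low group (adjusted p = 0.215 and 0.849). Of 21 MHC class I presentation genes 20 were tested and 16 fitted higher, with a median log2 ratio of 0.40 and 0 calls in edgeR (9 with an unadjusted p under 0.05, 2 calls with equal weights and 5 in DESeq2, against 8.92%, 5.31% and 14.9% of all genes in either direction). B2m, the light chain of class I, was higher in 11 of 12 plates, at 5526 ± 797 CPM in the high and 4202 ± 1189.6 CPM in the low group (log2 fold change 0.42 ± 0.10, edgeR adjusted p = 0.0682). B2m and Cst3 were as abundant as the class II transcripts near the UMI ceiling, so their differences may be compressed too. The correction for tags used more than once was run over all genes, and its values for B2m and Cst3 are not given here. The class I heavy chain H2-D1 had 3500.5 and 2674 CPM in the high and low group (adjusted p = 0.354).

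**Figure D3:**
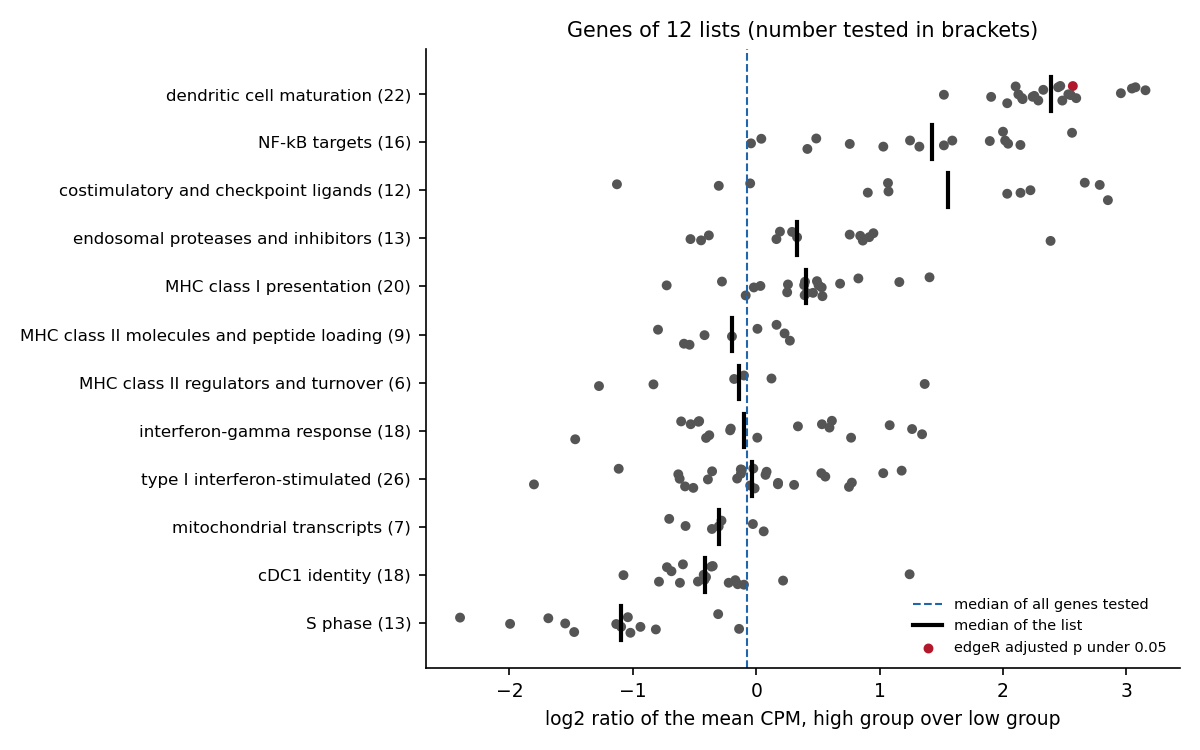
Each point is a gene of 1 of 12 lists, placed by the log2 ratio of its mean CPM in the high group over the low group (x axis); bars are list medians and the dashed line is the median of all 3845 genes tested, -0.07. Maturation genes centre at 2.39, NF-κB targets at 1.42, class II genes at -0.20 and cDC1 genes at -0.41.

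Genes of cDC1 identity lay on the low side. All 18 listed genes were tested and 16 were fitted lower, a description under the same filter as above, and the median log2 ratio was -0.41; 0 passed in edgeR. Without mature-marker cells 11 of 17 were fitted higher, against 49.4% of all genes tested in that setting. With all cells, 2 of the 18 genes were lower at an unadjusted p under 0.05 (106 of all genes, 2.76%). Equal weights called 3 lower (44 of all genes, 1.14%) and DESeq2 3 (267 of all genes, 6.94%). Ppt1, a lysosomal thioesterase, had 1054 ± 812 CPM in the high and 1821 ± 427 CPM in the low group and was lower in 10 of 12 plates (adjusted p = 0.213; 0.00136 with equal weights). Naaa, a lysosomal amidase, had 1118 and 1716 CPM (adjusted p = 0.719). Xcr1 had 251 ± 331 CPM in the high and 336 ± 248 CPM in the low group (adjusted p = 0.841), Batf3 498 and 553 CPM and Clec9a 117 and 149 CPM in the high and low group. Id2, a transcriptional inhibitor, was one of 2 members fitted higher, at 2791 and 2400.4 CPM (adjusted p = 0.498). The other was Zbtb46, a transcription factor of conventional dendritic cells, at 99.0 and 41.8 CPM (adjusted p = 0.913). Ifi205, an interferon-induced gene of the list, had 1627 and 1899 CPM (adjusted p = 0.899). Both groups held Xcr1, Batf3 and Clec9a transcripts, at overlapping levels.

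Cells were next sorted into states by markers, which counts cells in place of UMIs. A cell's state still depends on how much of these RNAs it held. Ccr7, Fscn1 and Ccl22 are both markers here and genes reported above, so the shares are no independent support for those values. A mature-marker cell had UMIs in 3 or more of Ccr7, Fscn1, Ccl22, Cacnb3, Il4i1 and Socs2, and a cDC1-marker cell in 3 or more of Xcr1, Clec9a, Cadm1, Tlr3, Itgae and Gcsam. Of the high group 52 of 106 cells were mature-marker cells (49.1%, exact binomial 95% interval 39.2 to 59.0%), of the middle group 15 of 119 (12.6%, 7.23 to 19.9%) and of the low group 11 of 106 (10.4%, 5.30 to 17.8%). These intervals cover counting error only. The middle group was close to the low one, and most mature-marker cells lay at the top of the staining range. Over plates the share ran from 11.1 through 52.8 to 100.0% in the high group and from 0 through 0 to 44.4% in the low group. The plate shares overlapped, and 2 plates ran the other way: Irf1_FF replicate 4 had 11.1% in the high and 44.4% in the low group, and Ikbkb_dXCR1 replicate 3 had 18.2% and 27.3%.

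The mature-marker share rose by 39.2 ± 34.5 percentage points from the low to the high group (SD of plate differences, n = 12), in 10 of 12 plates (two-sided exact sign-flip permutation p = 0.00488, adjusted p = 0.0195 over 4 shares). Left out in turn, the 12 plates gave differences of 35.5 to 45.8 points, each passing the test. With each cell thinned to 30000 UMIs, which left out 8 cells of each group, the difference was 40.1 points (exact permutation adjusted p = 0.0137). In the 9 plates of experiment M3 the difference was 45.0 points (exact permutation adjusted p = 0.0469). In the 3 plates of M2 it was 22.0 points, where the smallest possible p is 0.25. Turned round, median MHCII was higher in mature-marker than in other cells in 8 of the 10 plates with 3 or more of them, with means over 10 plates of 10.2 ± 1.01 against 9.03 ± 0.697 (SD) on the arcsinh scale. This is the same relation and no second test. Of the high group, 54 cells were no mature-marker cells, and 11 mature-marker cells lay in the low group.

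The other states did not pass. The cDC1-marker share was 26.9 ± 24.5% in the high, 46.1 ± 22.6% in the middle and 40.5 ± 22.6% in the low group (SD, n = 12; high against low exact permutation p = 0.195, adjusted p = 0.391). Only 3 cells met both the mature-marker and the cDC1-marker definition. Many met neither, more of them in the low than in the high group, and what these cells were was not tested. Macrophage-marker cells numbered 3 of 106 in the high and 1 of 106 in the low group, and cycling-marker cells 5 and 10 of 106 (adjusted p = 0.5 each, exact permutation).

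**Figure D4:**
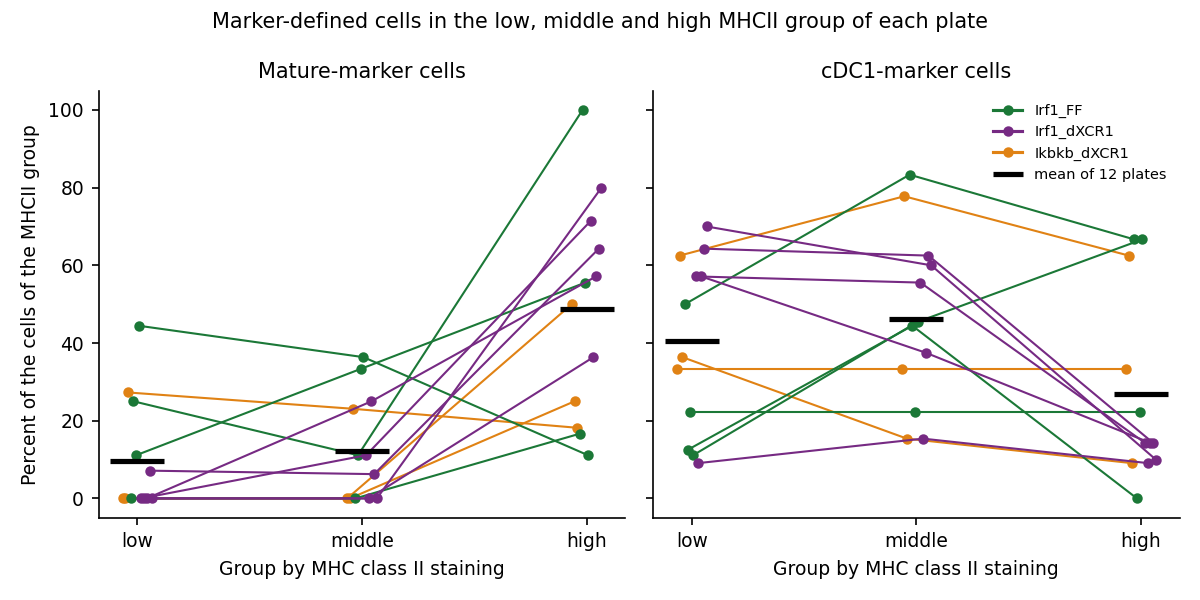
Lines show the percentage of mature-marker (left) and cDC1-marker cells (right) in the low, middle and high group of each of 12 plates, coloured by genotype; black bars are means of plates. The mature-marker mean is 9.58% in the low, 12.2% in the middle and 48.8% in the high group.

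With mature-marker cells left out and the groups drawn again, no gene passed. The 160 cells of the new high and low group gave 0 calls among 3362 genes in edgeR (0%), and 68 genes had an unadjusted p under 0.05. Of the 22 maturation genes 5 still had enough UMIs to be tested, all fitted higher. The cells left out were chosen by UMIs in Ccr7, Fscn1, Ccl22, Cacnb3, Il4i1 and Socs2, all in this list. The loss of maturation genes from the test, Ccl22 included, was therefore partly set by that choice. Klf6 had a log2 fold change of 0.58 ± 0.32 there against 1.02 ± 0.19 with all cells, and Nfkbia 0.67 ± 0.29. H2-DMa stood at -0.05 ± 0.16 and Ciita at -0.04 ± 0.57. H2-Ab1, Cd74 and H2-Aa were fitted 0.14, 0.22 and 0.22 higher, and 7 of 9 class II genes were on the high side, against 49.4% of all genes tested there. Among mature-marker cells alone, split into 2 parts by MHCII in the 8 plates with 6 or more (64 cells), 0 of 2092 genes passed (57 with an unadjusted p under 0.05), and Klf6 and Ccl22 stood at -0.15 and -0.14. Both settings held fewer cells. Without mature-marker cells the error was wider than with all cells for Klf6 and narrower for H2-DMa. These values do not show equality.

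The other stainings were compared as plate medians, 15 measures in all with scatter, depth and quality, and none passed after adjustment. CD45, the common leukocyte antigen, had an arcsinh median of 10.4 ± 0.163 in the high and 10.1 ± 0.287 in the low group (SD, n = 12), higher in 10 plates by 0.268 (exact permutation p = 0.00439, adjusted p = 0.0659). CD11c, an integrin of dendritic cells, was 9.67 ± 0.363 and 9.20 ± 0.664, also higher in 10 plates (exact permutation p = 0.0122, adjusted p = 0.0916). The stains labelled LIN and CD11b were higher in 10 plates each as well, by 1.08 and 1.40 (exact permutation adjusted p = 0.457 and 0.510), so that the direction was not particular to CD45 and CD11c. XCR1 protein was 8.43 ± 0.859 and 8.09 ± 0.714, higher in 7 plates and lower in 5 (exact permutation adjusted p = 0.457). CD64, an Fc receptor of macrophages that the selection also used, was 0.809 ± 5.65 and 5.19 ± 1.94, lower in the high group in 9 plates, which is given as a description. Its plate medians ran from -6.40 to 7.19 in the high group, across 0, where the arcsinh scale without a cofactor stretches small differences of intensity. Forward scatter, a measure of cell size, was 12.5 ± 0.0737 and 12.5 ± 0.125 (exact permutation adjusted p = 0.637).

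The high-low difference was then compared between genotypes. The mature-marker share was 1.43% in the low and 61.8% in the high group of Irf1_dXCR1, a difference of 60.4 ± 16.6 points (SD, n = 5) with 5 of 5 plates higher. In Irf1_FF the difference was 25.7 ± 46.0 points (n = 4) and in Ikbkb_dXCR1 22.0 ± 29.7 points (n = 3). Neither passed the test against Irf1_FF (Irf1_dXCR1 exact permutation p = 0.175, adjusted p = 0.349, and Ikbkb_dXCR1 exact permutation adjusted p = 0.971). With 3 against 4 plates the Ikbkb_dXCR1 test has too few arrangements to give any p under 0.05. With 5 against 4 plates the smallest possible p is 0.0159, which would not pass the adjustment over 4 shares if 1 share alone reached it. These outcomes therefore do not show equal differences. The high-minus-low difference of the cDC1-marker share was -39.1 ± 22.98 points in Irf1_dXCR1 and 14.9 ± 29.6 points in Irf1_FF (exact permutation p = 0.0476, adjusted p = 0.19), which did not pass. Both contrasts share the Irf1_FF plates.

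No gene passed the edgeR test for a high-low effect that differs between genotypes. Of 3845 genes, 0 (0%) passed for Irf1_dXCR1 against Irf1_FF and 0 (0%) for Ikbkb_dXCR1 against Irf1_FF, with 122 and 94 at an unadjusted p under 0.05. Within the same fit 19 genes passed in Irf1_dXCR1, all higher in the high group, and 0 in Irf1_FF and in Ikbkb_dXCR1 (110 and 123 unadjusted); a call in one genotype and not in another is no difference between them. Ccr7 had 3663 ± 990.2 CPM in the high and 0.264 ± 0.591 CPM in the low group of Irf1_dXCR1 plates, 1859 ± 1376 and 536 ± 369 CPM in Irf1_FF, and 1439.9 ± 591 and 410.0 ± 710.2 CPM in Ikbkb_dXCR1 (adjusted p of the differences of effects 1 and 1). H2-DMa had 640.1 ± 132 and 1775 ± 467 CPM in Irf1_dXCR1 and 1472 ± 989.6 and 1379 ± 233 CPM in Irf1_FF. H2-Ab1 means were close within each genotype: 5141 ± 886 and 5053 ± 1107 CPM in Irf1_dXCR1, 4482 ± 2044 and 4182 ± 698 in Irf1_FF, and 5321 ± 1439.6 and 5733 ± 2639 in Ikbkb_dXCR1.

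The targeted genes were measured in both groups. Irf1 (chr11:53770014-53778374), an interferon-induced transcription factor, had 503 ± 237 CPM in the high and 209.6 ± 194 CPM in the low group and was higher in 10 of 12 plates (adjusted p = 0.554; 0.0128 in DESeq2). In Irf1_dXCR1 plates it stood at 356 ± 176 CPM in the high and 98.5 ± 137 CPM in the low group, against 589 ± 283 and 333 ± 213 CPM in Irf1_FF, so that transcript was still found in both. Ikbkb (chr8:22659212-22706589), which encodes the kinase IKKβ of the NF-κB pathway, had 509.7 ± 270.3 CPM in the high and 317 ± 210.3 CPM in the low group (adjusted p = 0.853) and 384 ± 173 and 252 ± 247 CPM in Ikbkb_dXCR1. Counts per gene do not show whether reads fall in the deleted part.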

How the data were processed

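Single cells were sorted into 96-well plates and sequenced from the 5′ end with UMIs of 5 bases, per the labels' protocols. The deposited counts are UMIs per gene and cell; their sums equalled the authors' deposited totals in 555 of 555 cells. Per the submitters' processing notes, bcl2fastq, STAR 2.5.3a, HTSeq 0.9.1 and GRCm38 were used. The deposited metadata give each stain's intensity and its arcsinh value, taken without a cofactor, and the authors' mitochondrial and spike-in UMIs as a fraction, printed here as percent. Wells are single cells, 0 were marked as holding several, and no doublet caller was run; 0 wells were shared between plates.

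UMI counts were summed per plate and group and tested with edgeR 4.0.16 in R 4.3.3 (quasi-likelihood, TMM, filterByExpr, plate and group, two-sided, Benjamini-Hochberg over 3845 genes, threshold 0.05). The plate block pairs the groups because both come from the same tumour. CPM are counts per 1000000 UMIs after TMM scaling. The SE of an edgeR fold change is approximate: the absolute log2 fold change divided by the square root of its quasi-likelihood F. Alternatives were limma 3.58.1 and DESeq2 1.42.0, other factors, filters and cell sets, and each plate left out. Shares and stainings were tested with exact permutation tests in scipy 1.17.1, with the smallest p at 0.000488 for 12 plates. Sums held 704057 to 2898010 UMIs, and fits were tested on simulated data; at the spread of these plates they called few of the changed genes and almost no unchanged ones.

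The Ikbkb_FF plate had no MHCII values, so Ikbkb_dXCR1 was compared with Irf1_FF plates only, not with pooled controls as designed. Replicate numbers follow accession order. Positions are from GENCODE vM21, which held 19820 of 21205 symbols. Named by rule were H2-Ab1, Cd74, Irf1, Ikbkb, genes past the threshold (up to 12 each way), the smallest p values where fewer than 6 passed, and of each of 22 lists up to 4 called or the 2 most abundant members; other list members and Cytip were chosen after their values were seen. Members and lists were chosen with earlier results of these data known.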

Additional observations from a re-analysis of the deposited data

Results flagged for a closer look

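In 8 of 66 groups of 4 or 5 plates the highest or lowest plate stood apart from the others (Dixon's test). For continuous, normally spread values chance does this in about 1 in 20 groups. Shares that rest on few cells and ratios with sums at 0 are not such values, so the 8 groups cannot be set against that rate. Irf1_dXCR1 replicate 2 had a difference in cDC1-marker cells of 0 percentage points (high minus low), the nearest plate -42.9. Irf1_FF replicate 4 had a difference in macrophage-marker cells of -11.1 points and Irf1_dXCR1 replicate 5 one of 10.0 points, against 0 in the nearest plates; each rests on 1 cell. For CD11b staining, Irf1_FF replicate 2 had a difference of plate medians of 10.1 on the arcsinh scale, the nearest plate 1.58.

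For transcripts the values are log2 ratios of CPM + 1, high over low group. Irf1_FF replicate 4 stood apart for Flrt3, at -1.23 with the nearest plate at 8.33, and for H2-Aa, at -0.13 with the nearest at 0.44. Irf1_FF replicate 2 stood apart for H2-Oa, at -8.75 with the nearest at 0.28. Irf1_dXCR1 replicate 1 stood apart for Nfam1, at -2.18 with the nearest at -6.91.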

How the results depend on the processing

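The counts of genes passing edgeR (4 higher and 1 lower in the high group) moved with nearly every choice, and the cause was not tested. No gene passed in either direction without the replicate block by plate, with upper-quartile factors, without the fibroblast filter, in cells with 500 or more genes, without macrophage-marker or mature-marker cells, or in plates of M2 alone (0 and 0 each). The same held for 2 settings chosen after seeing the data, Irf1_FF plates alone and mature-marker cells alone. With CD64 under 7 the counts were 1 and 0, with MHCII adjusted for forward scatter 3 and 0, and in M3 plates 2 and 0. More genes passed with no filter on low counts (94 higher, 18 lower), with genes per cell as a covariate (35 and 2), with each plate cut into 2 parts (46 and 1) or the top and bottom of 4 parts (26 and 2) in place of 3, in DESeq2 (305 and 267) and with cells weighted equally (160 and 44). Settings chosen after seeing the data gave 11 and 1 with UMI collisions corrected and 39 and 8 in Irf1_dXCR1 plates alone. With 1 plate left out, the counts ran from 0 to 49 higher (45 without Ikbkb_dXCR1 replicate 3, 49 without Irf1_FF replicate 4) and from 0 to 5 lower. The genes whose effect differed between Irf1_dXCR1 and Irf1_FF numbered 0 to 1, the 1 without Irf1_dXCR1 replicate 5. In each of these settings the called genes that could be tested kept their direction, except among mature-marker cells alone, where Ccl22 stood at -0.14 and Klf6 at -0.15 on the log2 scale.

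The higher mature-marker share kept its call except in M2 plates alone, where the 3 plates gave 22.0 points and no p under 0.25 is possible. The macrophage-marker difference was -0.123 points in M3 alone and the cycling-marker difference 5.81 points in M2 alone, and with each plate cut into 2 parts the differences were 0.0969 points for mitochondrial and 0.241 for spike-in UMIs. With 1 plate left out, the CD11b difference ran from 0.614 to 2.40 and passed without Ikbkb_dXCR1 replicate 2 (exact permutation adjusted p = 0.0293). The CD45 difference ran from 0.215 to 0.303 and passed without Irf1_dXCR1 replicate 3 or 5 (exact permutation adjusted p = 0.0439 and 0.0293). Forward scatter ran from -0.0432 to 0.00699. Sums of 6 to 14 cells limit the precision for genes of few UMIs.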

Other observations

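Other gene groups gave values without a call in edgeR. Of 26 tested interferon-stimulated genes 13 were fitted higher and 13 lower, with Ifitm3 at 1495 and 1621 CPM and Ly6e at 1555 and 2214 CPM in the high and low group. DESeq2 called 0 of these 26 higher and 2 lower. The interferon-gamma list had 13 of 18 genes fitted higher, but a median log2 ratio of mean CPM of -0.10. Of these 18, DESeq2 called 4 higher and 1 lower (7.93% and 6.94% of all genes), and limma-trend 0. Irgm1, a GTPase of this response, had 341 and 492 CPM. Of 13 S phase genes 12 were fitted lower, with a median log2 ratio of -1.09. Pcna, the sliding clamp of DNA replication, had 144 and 292 CPM, and Rfc2, a subunit of the clamp loader, 136 and 290.3 CPM. DESeq2 called 6 S phase genes lower (6.94% of all genes), edgeR 0 (0.026%) and limma-trend 0 (1.14%). Hmgb2, a chromatin protein high in dividing cells, had 232 and 431 CPM, and Tubb4b, a tubulin, 139 and 92.8 CPM.

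Of the metabolic and stress genes none passed in edgeR. Of 7 tested mitochondrial transcripts, 1 was lower at an unadjusted edgeR p under 0.05 (2.76% of all genes), and limma-trend called 1 lower (1.14%). Of 5 tested cholesterol genes DESeq2 called 1 lower (6.94% of all genes). Of 13 glycolysis and hypoxia genes 9 were fitted higher, with Pkm at 1172 and 1062 CPM and Ldha, lactate dehydrogenase A, at 857 and 1084 CPM. The mitochondrial transcript mt-Cytb had 2902 and 3583 CPM and mt-Co1 3515 and 3371 CPM. The heat-shock gene Hspa8 had 3067 and 2674 CPM and Hsp90ab1 1293 and 1039 CPM. In cholesterol synthesis, Idi1 had 128 and 54.4 CPM and Msmo1 49.6 and 102 CPM. Genes of other cells did not pass either: the myeloid genes Lyz2 and Cd68 had 416 and 610.1 CPM and 374 and 563 CPM, Il1b and Fcgr2b 459.9 and 272 CPM and 291 and 236 CPM, and Ighm and Tcf4 136 and 236 CPM and 110.2 and 127 CPM in the high and low group. Adjusted p-values of these genes in edgeR ran from 0.354 to 0.989.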
